A study of Mus musculus with 12 samples.

Results

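The mouse mitochondrial genome encodes 13 messages, 2 ribosomal RNAs and 22 transfer RNAs, and these 37 transcripts were followed across 12 wells of C2C12 cells. They were chosen as the rows whose gene symbol begins with mt-, which gave 37 of the 56941 genes in the deposited tables. C2C12 is a mouse myoblast line that fuses into myotubes when serum is lowered. The series belongs to work on how exercised muscle acts on motor neurons, and these libraries compared the muscle cells of the engineered and the parental kind. No label names a light stimulus, so all wells are described as unstimulated only in the sense that no stimulus is recorded.

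Of the 12 wells, 6 held the ChR2::tdTomato line, called ChR2 here, and 6 held wild-type cells, called WT. ChR2 cells carry channelrhodopsin-2, a light-gated cation channel, joined to the red fluorescent protein tdTomato. The sources used here give neither the promoter of the transgene nor whether the line is 1 clone. Both groups were grown in the same way, per the labels' protocols: on a fibrin gel of 1 mm made with 8 mg of fibrinogen per mL, 2 days of growth medium being followed by 6 days of differentiation medium (horse serum and IGF-1), with aminocaproic acid in both. Libraries were made from poly(A)-selected RNA with 14 cycles of PCR and sequenced from both ends for 50 bases. Ribosomal RNA was depleted in low-input samples, which the protocol leaves unnamed. Nothing in the labels says that the wells were separate cultures, so p-values measure the spread between wells only.

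Mitochondrial DNA is transcribed from both strands into long precursors, which are cut into single RNAs mostly at the transfer RNAs that lie between the messages. All proteins made from it are subunits of the respiratory chain or of the ATP synthase, which also need many subunits from nuclear genes. In skeletal muscle this machinery grows as fibres differentiate, and the messages carry short poly(A) tails while mt-Nd6, on the light strand, is known to carry little or no tail.

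WT 2, WT 5 and ChR2 4 stood apart and are shown separately throughout. WT 2 and WT 5 held 1061068 and 2809669 counts, against 7388761 to 13628569 in the other 10 wells. 7SL RNA, the untailed RNA of the signal recognition particle, took 24.8% of the counts in WT 2 and 8.37% in WT 5, and at most 0.0341% elsewhere. ChR2 4 was set apart by an 18S ribosomal RNA row (Rn18s-rs5) that took 3.77% of its counts, against at most 0.693% in any other well. All 12 muscle markers were above 1 CPM (counts divided by the well's total and scaled to a common library size) in every well. Of 20 markers of other cell types, 15 were at or under 1 CPM in every well, among them the endothelial markers Pecam1 and Cdh5 and the leukocyte marker Ptprc. The summed level of all 20 was 148 to 200 CPM in ChR2 and 78.2 to 175 CPM in WT. In bulk RNA, fewer mitochondria-rich cells and less mitochondrial RNA per cell cannot be told apart.

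The arrangement of the genes bears on how their counts can be read, so the 3 longer stretches where neighbouring messages share bases are shown first; mt-Atp6 and mt-Co3 also share 1 base. Coordinates and sequences are those of GENCODE M21 on GRCm38. Messages for subunits 8 and 6 of the ATP synthase overlap by 43 bases, and those for ND4L and ND4 of complex I by 7 bases, each pair lying on 1 transcript and read in different frames. The end of mt-Nd5 and the end of mt-Nd6 overlap by 14 bases on opposite strands. Capitals mark the shared bases, written 5′ to 3′ on the heavy-strand message's side, at chrM:7907-7989, chrM:10147-10193 and chrM:13532-13585.
mt-Atp8/mt-Atp6: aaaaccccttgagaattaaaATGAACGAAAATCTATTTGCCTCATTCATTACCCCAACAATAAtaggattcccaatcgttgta
mt-Nd4l/mt-Nd4: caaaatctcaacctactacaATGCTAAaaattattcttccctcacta
mt-Nd5/mt-Nd6: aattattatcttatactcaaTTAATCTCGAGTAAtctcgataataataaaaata

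Of the 13 messages, 12 lie on the plus strand of the reference and 1, mt-Nd6, on the minus strand, together with 8 of the 22 transfer RNAs. The annotated lengths of mt-Co3, mt-Nd4 and mt-Cytb leave a remainder of 1 after division by 3. Their last codon is a single T, and the added poly(A) tail is what completes it to a stop codon. The last 30 bases show this, with the final T in capitals, at chrM:9361-9390, chrM:11515-11544 and chrM:15259-15288.
mt-Co3: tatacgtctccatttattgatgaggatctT
mt-Nd4: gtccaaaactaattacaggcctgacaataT
mt-Cytb: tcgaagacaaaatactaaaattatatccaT

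Of the 13 messages, 7 have a near-identical copy in nuclear DNA, and the counts of row and copy could not be separated by sequence. The copies are unprocessed pseudogenes on the minus strand of chromosome 1, at chr1:24611535-24616197, and lie in the order of the mitochondrial genes from mt-Co1 to mt-Nd4. Gm28661 matched mt-Co2 over 681 bases with 0 mismatches. Gm10925 matched mt-Atp6 over 678 bases, Gm28437 matched mt-Co3 over 783, Gm10222 matched mt-Nd4l over 294 and Gm28439 matched 876 of the 1378 bases of mt-Nd4, each with 0 mismatches. Only Gm28438, the copy of mt-Nd3, and Gm29216, the copy of part of mt-Co1, held any difference from their row. They are printed with the differing bases in capitals, for mt-Nd3 at chrM:9459-9518 and for mt-Co1 at chrM:6381-6440.
mt-Nd3: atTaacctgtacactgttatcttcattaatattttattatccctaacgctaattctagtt
Gm28438: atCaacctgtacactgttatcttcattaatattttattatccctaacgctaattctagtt
mt-Co1: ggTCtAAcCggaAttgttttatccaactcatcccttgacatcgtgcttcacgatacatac
Gm29216: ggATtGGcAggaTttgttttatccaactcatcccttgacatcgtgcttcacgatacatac

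Counted from 1 at the 5′ end of the mitochondrial transcript, with its base first, the copy of mt-Nd3 differed by T3C. The copy of mt-Co1 differed by T1056A, C1057T, A1059G, A1060G, C1062A and A1066T. A read from the rest of the stretch that either copy covers fits row and copy equally. The sources used here do not say how such reads were divided.

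That division varied widely between wells. The copy Gm28437 held 68.3% to 100% of the sum of mt-Co3 and its copy, and Gm28438 held 22.2% to 100% of the sum for mt-Nd3. For mt-Nd4l the copy's share ran from 0% to 100%, and for mt-Co2 from 0% to 58.1%. In mt-Co1, where the annotated copy spans only 492 of 1545 bases, it was 0% to 4.63%. The mt-Atp6, mt-Co3 and mt-Nd3 rows were listed at 0 in both WT 2 and WT 5, with all their counts on the copies, and the mt-Nd4l row was listed at 0 in WT 2. A row of these genes taken alone therefore does not give the level of the message, and sums of row and copy, an addition chosen after the data were seen, are given beside the rows. Over the stretches shared with a copy, mitochondrial and nuclear origin of the summed reads cannot be told apart.

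**Figure D1:**
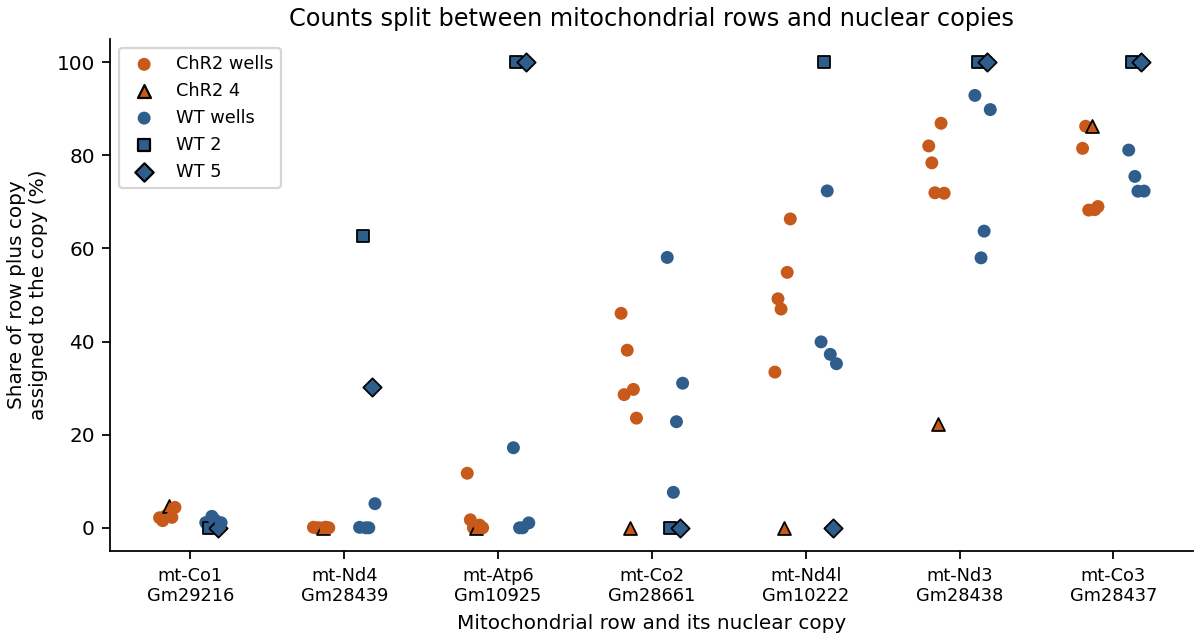
Each point is 1 well and gives the percentage of row plus copy that the deposited counts assign to the nuclear copy, for the 7 messages that have one. Points for mt-Co3 lie at 68.3% or above, those for mt-Co1 at 4.63% or below, and WT 2 and WT 5 reach 100% for mt-Atp6, mt-Nd3 and mt-Co3.

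Among the 7 copies, 1 passed the test between the lines, beside 28.1% of all genes tested. Gm28439, the copy of part of mt-Nd4, had a log2 fold change of ChR2 over WT of -5.88 (SE 1.74, edgeR adjusted p = 0.0288). Its counts were 2209 in WT 6, 121 in WT 5 and 43 in WT 2, and at most 28 in the other 9 wells, so 3 wells of WT carried it. Without WT 6 the adjusted p was 0.078, without WT 2 and WT 5 it was 0.0551, and leaving out any 1 of ChR2 1, 2, 3, 4 and 6 gave 0.0522 to 0.0591. The other 6 copies did not pass.

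Messages took 1.74%, 2.22%, 2.00%, 0.67%, 2.48% and 2.05% of the counts in ChR2 wells 1 to 6. In WT wells 1 to 6 they took 2.92%, 0.0842%, 1.28%, 2.20%, 0.211% and 4.02%. The highest and the 2 lowest shares were thus all in WT wells, and the lines overlapped. In ChR2, 5 of the 6 wells lay within 1.74% to 2.48%, and ChR2 4 was below them. The mean was 1.86% ± 0.633 in ChR2 and 1.79% ± 1.56 in WT (SD, n = 6 each). Without WT 2 and WT 5 the WT mean was 2.60% ± 1.16 (SD, n = 4), still overlapping ChR2. Counting error was small beside this spread: exact Clopper-Pearson 95% intervals were 0.0787% to 0.0899% in WT 2 and 0.205% to 0.216% in WT 5. These intervals cover counting error only, since PCR copies are not independent molecules.

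Adding the copies raised the shares to 0.0981% to 4.56% and left the order of the 3 low wells as it was. Copies made up 10.9% to 18.8% of the sum. Taking the untailed RNAs (7SL, 7SK, RNase P, MRP and 18S RNA and the replication-dependent histone messages) out of the denominator gave 0.116% in WT 2, 0.233% in WT 5 and 0.697% in ChR2 4, against 1.28% or more in the other 9 wells. The same 3 wells were thus lowest with the untailed RNAs left out of the total.

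**Figure D2:**
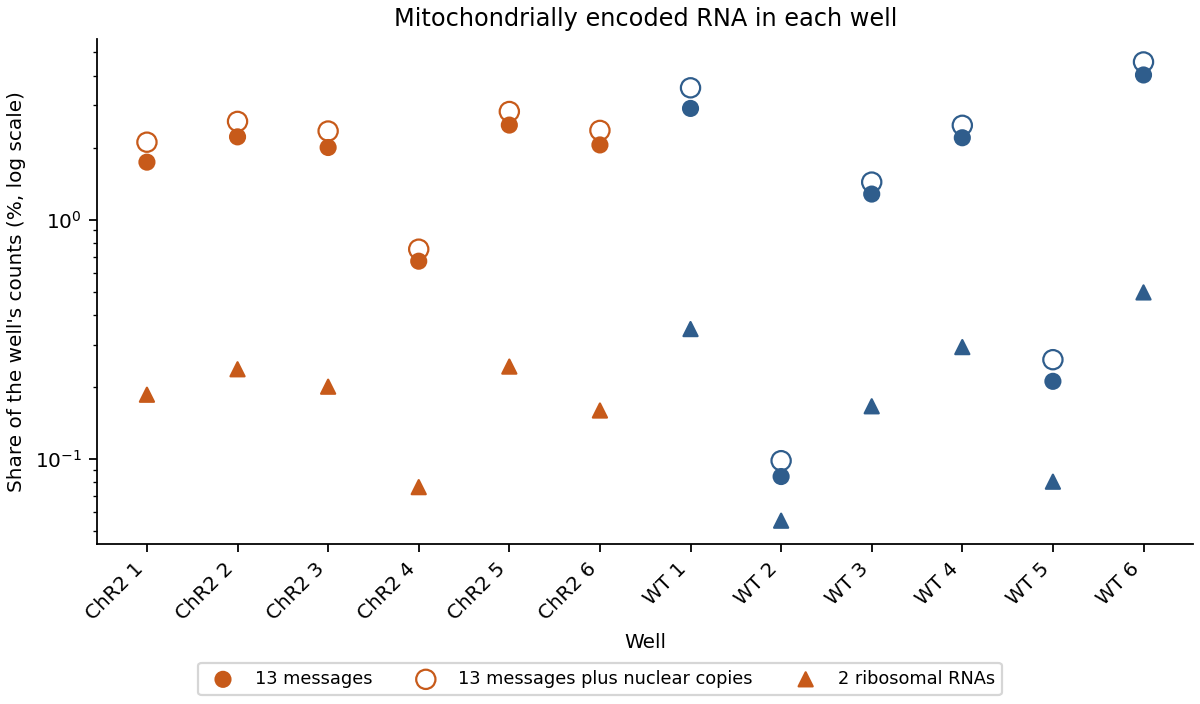
The plot gives, for each well on a log scale, the percentage of counts in the 13 messages (filled circles), in the messages plus nuclear copies (open circles) and in the 2 ribosomal RNAs (triangles), with ChR2 in orange and WT in blue. WT 2, WT 5 and ChR2 4 lie lowest for the messages, at 0.0842%, 0.211% and 0.67%.

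None of the 13 messages and neither ribosomal RNA passed the test between the lines, edgeR's quasi-likelihood test with Benjamini-Hochberg adjustment over all genes. In that fit 3701 of 13168 genes passed at an adjusted p under 0.05, which is 28.1% of genes tested. The mitochondrial count was 0 of 15, also at an unadjusted p under 0.05, and DESeq2 called 0 of 15 too. With copies added it was again 0 of 15, beside 28.2% of genes tested. Adjusted p-values ran from 0.435 for mt-Rnr2 to 0.984 for mt-Nd4. In CPM the lines overlapped for all 15, with and without WT 2 and WT 5, while 13.4% of all genes tested did not overlap over the 12 wells and 23.7% without WT 2 and WT 5. Standard errors of 0.37 to 1.21 on the log2 scale accompany these fold changes. A change of that size, or one well above it, could not be told from the spread between wells. Without WT 2 and WT 5, for example, mt-Rnr2 had a log2 fold change of -0.87 with a standard error of 0.354 and did not pass.

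Complex I, which passes electrons from NADH to ubiquinone, draws 7 of its subunits from these messages. mt-Nd1 was at 472, 1474 and 1870 CPM (lowest, median and highest of 6) in ChR2 and at 62.2, 1404 and 3138 CPM in WT. WT alone spans the whole ChR2 range, and the log2 fold change was -0.04 (SE 0.702). mt-Nd2 was at 305, 927 and 1191 CPM in ChR2 and 29.2, 727 and 1722 CPM in WT, with a log2 fold change of 0.25 (SE 0.692). The mt-Nd4 row alone was at 423, 1327 and 1770 CPM against 24.2, 1179 and 2963 CPM. With its copy, mt-Nd4 was at 423, 1327 and 1773 CPM against 65.0, 1179 and 3125 CPM. mt-Nd5, the last plus-strand message of the complex, was at 379, 1064 and 1489 CPM against 127, 1043 and 2851 CPM. In both, the 2 lowest wells were WT 2 and WT 5 and the highest was WT 6. With copies added, mt-Nd3 was at 46.4, 112 and 117 CPM in ChR2 and 2.83, 88.5 and 161 CPM in WT, and mt-Nd4l at 38.6, 124 and 171 CPM against 2.83, 109 and 258 CPM.

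mt-Nd6, the light-strand message, was ordered otherwise. Its level was 47.5, 51.3, 52.3, 13.5, 43.7 and 42.1 CPM in ChR2 wells 1 to 6 and 48.1, 48.1, 13.8, 23.5, 15.3 and 42.3 CPM in WT wells 1 to 6. WT 2, which was the lowest well for the sum of the messages, was level with the highest WT wells here. The log2 fold change was 0.35 (SE 0.368, edgeR adjusted p = 0.509). The sources used here do not say whether the counting used strand, so reads from mt-Nd6 and from plus-strand RNA opposite it cannot be told apart.

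Complex III, which hands electrons on to cytochrome c, has 1 subunit here, cytochrome b. mt-Cytb was at 498, 1613 and 1858 CPM in ChR2 and 15.1, 1233 and 3023 CPM in WT (log2 fold change 0.13, SE 0.816). Complex IV, the cytochrome c oxidase, takes its 3 catalytic-core subunits from mt-Co1, mt-Co2 and mt-Co3. mt-Co1 was the largest share of the messages in every well. Its row alone was at 2400, 7901 and 10150 CPM against 311, 7375 and 17383 CPM (log2 fold change -0.08, SE 0.64). mt-Co2 with its copy was at 1212, 4015 and 4361 CPM against 139, 2571 and 5979 CPM, and mt-Co3 with its copy at 805, 2305 and 2526 CPM against 48.1, 2016 and 4000 CPM. All 3 overlapped between the lines, with log2 fold changes of the sums of -0.06, 0.40 and 0.06.

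The ATP synthase, complex V, takes 2 subunits from the overlapping pair shown above. mt-Atp8 was at 71.6, 214 and 241 CPM in ChR2 and 6.05, 155 and 353 CPM in WT. mt-Atp6 with its copy was at 737, 2108 and 2455 CPM against 44.3, 1496 and 3382 CPM. Since both lie on 1 RNA, their ratio in counts was compared within wells: it was 9.02 to 10.3 in the ChR2 wells and 7.86 to 10.3 in WT 1, 3, 4 and 6, but 6.71 in WT 2 and 28.8 in WT 5. These 2 wells held 7 and 17 counts of mt-Atp8. For the second overlapping pair, mt-Nd4 over mt-Nd4l with copies was 9.54 to 12.1 in the 10 other wells, 23.0 in WT 2 and 22.2 in WT 5, where the mt-Nd4l sums were 3 and 18 counts.

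Which wells entered the fit moved the messages together. The median of their log2 fold changes was 0.13 over all 12 wells, with 8 above 0 and 5 below, beside -0.02 over all genes tested. Without WT 2 and WT 5 it was -0.42, with 2 above 0 and 11 below, beside -0.00141 over all genes. Still 0 of 13 messages passed there, while 35.2% of genes did. In that fit mt-Rnr2 came nearest, with a log2 fold change of -0.87 (SE 0.354, edgeR adjusted p = 0.0807, unadjusted p = 0.0336), and it was the 1 member under 0.05 before adjustment. Without WT 6, the well with most mitochondrial RNA, the median was 0.48 and all 13 messages lay above 0, none past the threshold. The direction of the messages between the lines thus rests on single WT wells.

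**Figure D3:**
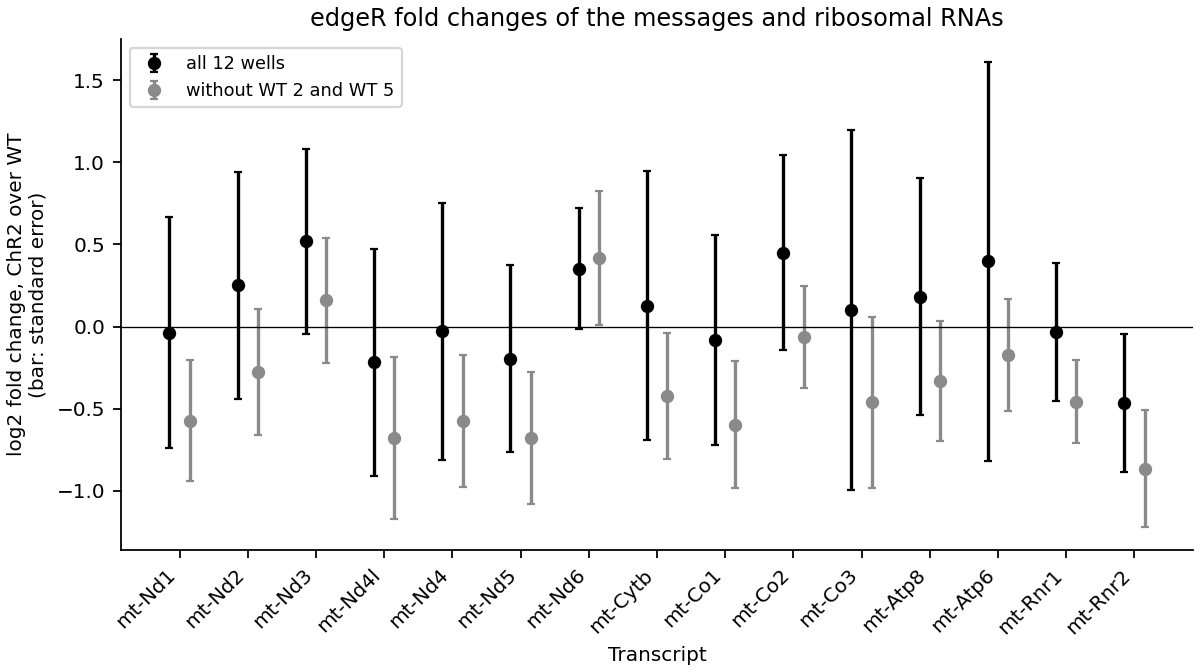
Points give edgeR log2 fold changes of ChR2 over WT for the rows as deposited and bars the standard error, over all 12 wells (black) and without WT 2 and WT 5 (grey). Without those wells 11 of the 13 messages lie below 0, and no adjusted p falls under 0.05 in either fit.

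The ribosomal RNAs of the mitochondrial ribosome are encoded by mt-Rnr1 (12S) and mt-Rnr2 (16S). mt-Rnr1 was at 149, 300 and 352 CPM in ChR2 and 54.7, 301 and 495 CPM in WT. mt-Rnr2 was at 611, 1630 and 2075 CPM in ChR2 and 496, 1991 and 4471 CPM in WT. Both overlapped between the lines. As a share of all mt- counts, the ribosomal RNAs took 9.62%, 9.64%, 9.09%, 10.2%, 8.91% and 7.20% in ChR2 wells 1 to 6 and 10.7%, 39.5%, 11.5%, 11.8%, 27.6% and 11.0% in WT wells 1 to 6. Every ChR2 well was below every WT well on this measure. With the nuclear copies counted as messages, the ratio of ribosomal RNA to message was 0.0674 to 0.101 in ChR2 and 0.098 to 0.561 in WT, and the lines overlapped through ChR2 4 and WT 1. The ratio was highest in WT 2 and WT 5, where 7SL was also highest. Outside those wells 7SL was highest in ChR2 4, at 0.0341%, where the 18S row was also highest, at 3.77%. The ratio there, 0.101, was the highest of the ChR2 wells. In ChR2 1, 2, 3, 5 and 6, 7SL took 0.00177% to 0.00515%, and the ratios were 0.0674 to 0.0919. In WT 1, 3, 4 and 6 it took 0.00163% to 0.00319%, and the ratios were 0.098 to 0.118. The part of untailed RNA in the result was not tested.

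Transfer RNAs were almost absent from the counts. Of 22 rows, 21 were at 0 in every well, and the only count was 1 for mt-Tc, the cysteine transfer RNA, in ChR2 3. A count of 0 allows a share of up to 0.000283% in WT 2 and up to 2.2e-05% in WT 6, the shallowest and the deepest well. No transfer RNA passed the filter on low counts. These RNAs are 59 to 75 bases long and carry no poly(A) tail.

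The make-up of the messages was compared apart from their level. With copies added, each message was taken as a share of the 13 in its well. Of the 13, 3 did not overlap between the lines over all 12 wells (23.1%), and all were higher in ChR2: mt-Co2, mt-Nd2 and mt-Atp6. In CPM 13.4% of all genes tested did not overlap over these wells, a different measure, and nothing is read from the count of 3. mt-Co2 took 16.2%, 15.5%, 17.3%, 16.1%, 15.4% and 17.1% in ChR2 wells 1 to 6. In WT it took 7.97% in WT 5 and 12.9% to 14.1% in the other 5 wells, so the highest WT well, WT 2, was below the lowest ChR2 well. The ChR2 mean was 16.3% ± 0.774 and the WT mean 12.4% ± 2.21 (SD, n = 6 each). mt-Nd2 took 3.85% to 4.30% in ChR2 and 2.98% to 3.78% in WT, and mt-Atp6 took 8.48% to 9.81% against 4.52% to 8.27%. ChR2 4, the lowest of its line in message level, took 16.1% and 4.05% for mt-Co2 and mt-Nd2, within the range of the other 5 ChR2 wells, and 9.81% for mt-Atp6, above their 8.48% to 9.11%.

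Without WT 2 and WT 5, 5 of the 13 did not overlap (38.5%, beside 23.7% of all genes in CPM): those 3 and mt-Nd6 were higher in ChR2, and mt-Nd1 was lower. mt-Nd6 took 0.154% to 0.225% in ChR2 and 0.0927% to 0.135% in WT 1, 3, 4 and 6. mt-Nd1 took 6.16% to 6.83% in ChR2 against 6.88% to 7.39% in those 4 WT wells. mt-Co1 overlapped, at 33.5% to 36.7% in ChR2 and 31.7% to 52.4% in WT, where WT 2 was the lowest and WT 5 the highest well. The shares are parts of 1 sum, so a higher share of one message lowers the others.

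How counts were divided with the copies bears on these shares. In the rows as deposited only mt-Nd2 did not overlap over all 12 wells (7.69% of 13), and only mt-Nd2 and mt-Nd6 without WT 2 and WT 5 (15.4%). Among the 6 messages that have no near-identical copy, none was without overlap over all 12 wells, and mt-Nd2 and mt-Nd6 were without it, higher in ChR2, without WT 2 and WT 5 (33.3% of 6). The separation of mt-Co2 and mt-Atp6 was thus seen only with copies added. That of mt-Nd2 and mt-Nd6 without WT 2 and WT 5 was seen under all 3 countings, but mt-Nd2 overlapped over all 12 wells when only the 6 copy-free messages were counted. The ratio of mt-Nd5 to mt-Nd6, both free of near-identical copies, was 20.6 to 30.0 in ChR2 and 39.3 to 67.5 in WT 1, 3, 4 and 6, but 4.31 in WT 2 and 8.28 in WT 5, below every ChR2 well. The ratio of mt-Co2 to mt-Co1 with copies was 0.42 to 0.50 in ChR2 and 0.334 to 0.356 in those 4 WT wells, but 0.446 in WT 2, inside the ChR2 range, and 0.152 in WT 5. Both ratios thus overlapped between the lines over all 12 wells. No test was run on shares or ratios, which were examined after their values were known.

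**Figure D4:**
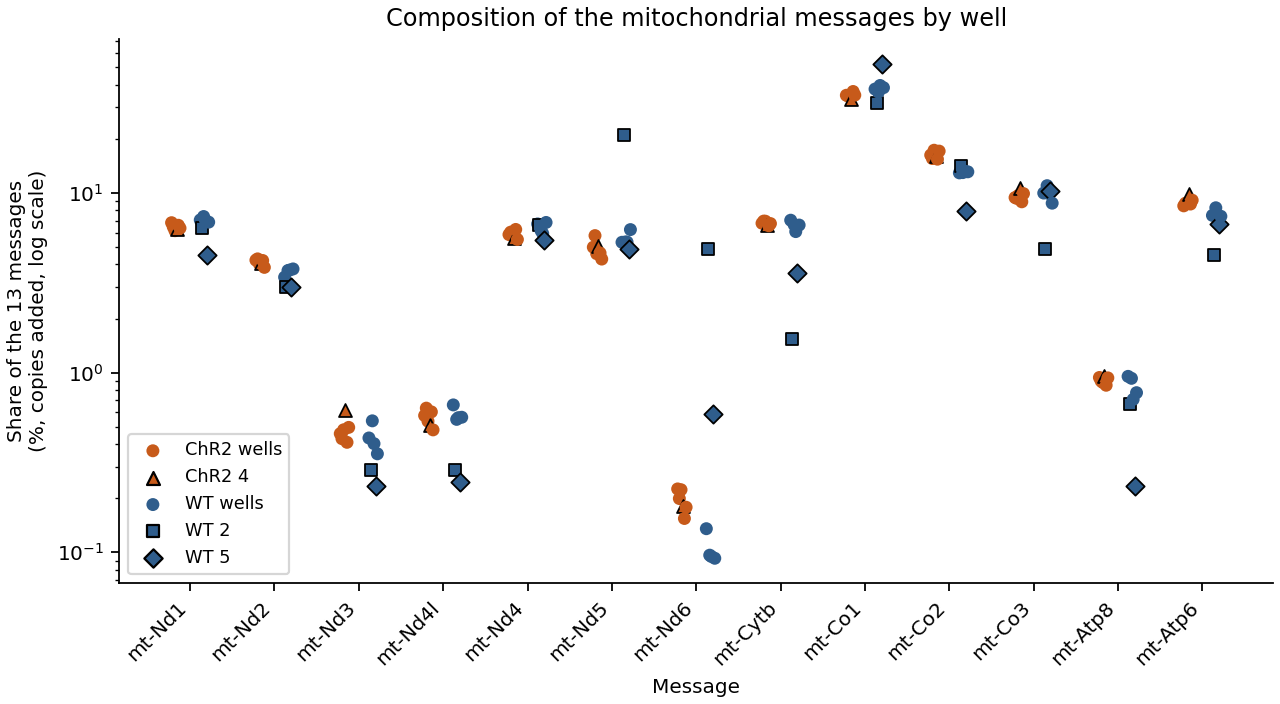
Each point is the share of 1 message among the 13 in 1 well, copies added, on a log scale, with ChR2 in orange and WT in blue. The lines are apart for mt-Nd2, mt-Co2 and mt-Atp6 over all wells, and WT 2 stands high for mt-Nd5 (21.1%) and mt-Nd6 (4.90%).

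By complex, with copies added, the make-up was steady outside the low WT wells. Complex IV messages made up 59.5% to 62.8% and complex I messages 21.2% to 24.8% of the 13 in the 9 wells that did not stand apart. mt-Cytb made up 6.09% to 7.05% there. Complex V was higher in ChR2 than in WT without overlap in this counting, at 9.42% to 10.8% against 5.19% to 9.20%, which follows mt-Atp6. In the rows as deposited the mt-Atp6 share overlapped, at 9.07% to 11.0% in ChR2 and 0% to 9.28% in WT.

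The 3 wells low in mitochondrial messages were low in different ways. ChR2 4 was low for nearly all messages alike: with copies added, the median of the other 9 wells was 2.43-fold higher for mt-Nd3 and 3.61-fold higher for mt-Nd4l, with the other 11 messages between. Its composition stayed close to theirs, with shares 0.909 to 1.43 times the median of the 9 wells. In WT 2 the fold was uneven, from 108-fold lower for mt-Cytb, with 16 counts, through 26.8-fold for mt-Nd1, to 6.32-fold for mt-Nd5. mt-Nd6 in WT 2 was 1.10 times the median of the 9 wells. The ribosomal RNAs were less far below, mt-Rnr1 by 5.82-fold and mt-Rnr2 by 4.17-fold.

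WT 5 was also uneven, in another order. The median of the 9 wells was 36.5-fold higher for mt-Atp8, the message furthest down, and 10.3-fold higher for mt-Nd5, both larger gaps than in WT 2. Its mt-Nd6 was 2.85-fold lower and mt-Rnr2 2.82-fold lower than the median of the 9 wells, mt-Rnr1 4.59-fold lower and mt-Cytb 17.6-fold lower. In WT 2, mt-Nd6 took 4.90% of the messages (51 of 1041 counts, exact Clopper-Pearson 95% interval 3.67% to 6.39%) and in WT 5 0.59% (43 of 7289 counts, 0.427% to 0.794%), against 0.225% at most in the other 10 wells. mt-Nd5 took 21.1% in WT 2 (18.7% to 23.7%) but 4.88% in WT 5, within the range of the rest. mt-Cytb, whose gene follows mt-Nd6 and mt-Te but on the other strand, took 1.54% of the messages in WT 2 (0.881% to 2.48%) and 3.57% in WT 5, against 6.09% or more elsewhere. mt-Co1 was 52.4% in WT 5 and 31.7% in WT 2. Their low depth limits the small values, and 7SL, histone and other untailed RNA were high in these same 2 wells; the part of either in the composition was not tested.

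**Figure D5:**
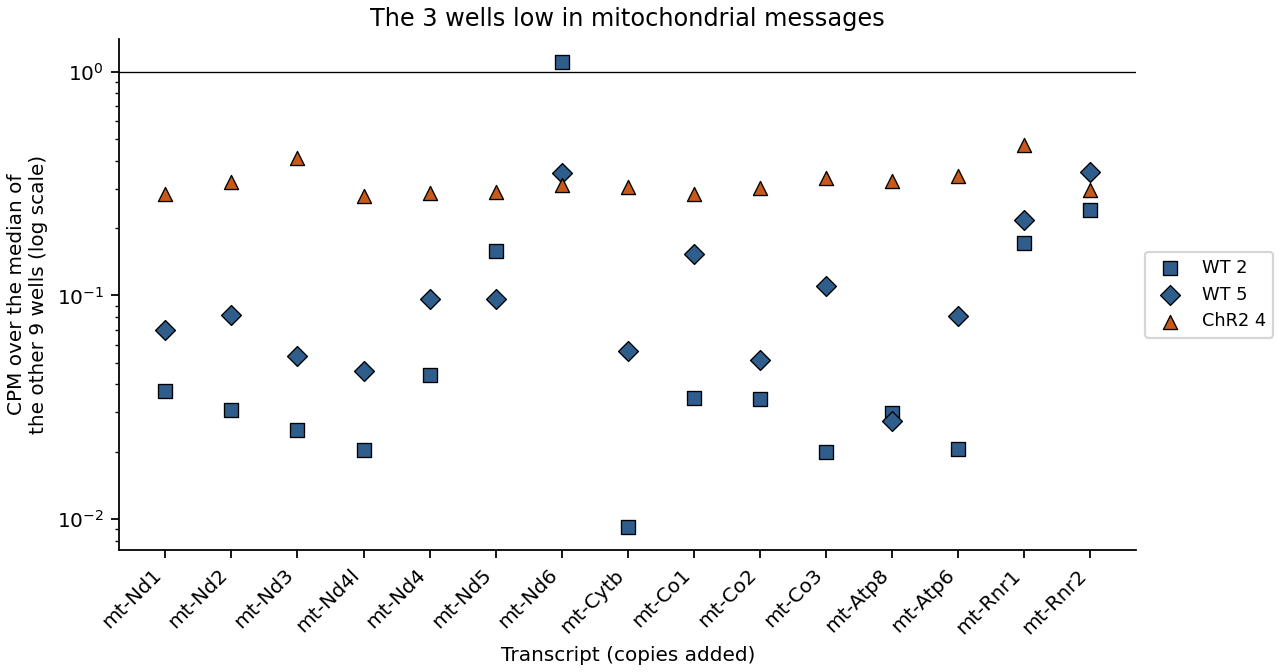
For each transcript, copies added, the CPM in WT 2 (squares), WT 5 (diamonds) and ChR2 4 (triangles) is divided by the median of the other 9 wells, on a log scale, and the line marks equality. ChR2 4 lies in a narrow band from 0.277 to 0.468, while WT 2 runs from 0.00924 for mt-Cytb to 1.10 for mt-Nd6.

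Levels between genes were compared in TPM, which corrects for transcript length, with copies added. In ChR2 the medians of 6 wells were 9856 TPM for mt-Co2, 8343 for mt-Co1, 5430 for mt-Atp6, 5419 for mt-Atp8 and 4817 for mt-Co3. All complex I messages and mt-Cytb were below these, from 2512 TPM for mt-Nd1 and 2138 for mt-Cytb to 861 for mt-Nd3 and 180 for mt-Nd6. The TPM of mt-Atp6 and mt-Atp8, which share 1 RNA, lay next to each other, and mt-Nd4 (1450), mt-Nd2 (1445) and mt-Nd4l (1419) lay close together. In WT mt-Co1 (7752 TPM) and mt-Co2 (6929 TPM) stood in the other order and mt-Nd6 was again lowest, at 76.3 TPM. That swap was seen only with copies added. In the rows as deposited mt-Co1 led mt-Co2 in both lines, at 7406 against 6997 TPM in ChR2 and 7096 against 4923 TPM in WT. A copy's TPM is scaled to the copy's own length. In ChR2 6 the short Gm29216, with 4.38% of the summed counts, raised mt-Co1 from 6809 to 8239 TPM. The well ranges of neighbours in this order overlapped. mt-Rnr2 (1555 TPM in ChR2 and 1866 in WT) and mt-Rnr1 (477 and 517 TPM) were below the leading messages, in libraries selected for poly(A).

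Nuclear genes that act on mitochondrial DNA and RNA were examined in the same fit, in which 14% of all genes tested were higher and 14.1% lower in ChR2. Of 17 genes of mitochondrial DNA replication and transcription, 1 rose and 3 fell. Primpol, a primase-polymerase, rose from 6.51 ± 1.58 CPM in WT to 13.4 ± 1.95 CPM in ChR2 (SD, n = 6 each; log2 fold change 0.98, edgeR adjusted p = 0.000972). Polrmt, the mitochondrial RNA polymerase, was at 54.7 ± 19.5 CPM in WT and 29.9 ± 2.38 CPM in ChR2 (log2 fold change -0.80, edgeR adjusted p = 0.00486). Twnk, the helicase of mitochondrial replication, fell by 0.80 on the log2 scale (edgeR adjusted p = 0.0027). Tfam, which packages mitochondrial DNA and starts its transcription, had a log2 fold change of -0.19 and did not pass (edgeR adjusted p = 0.14). Without WT 2 and WT 5 the fold changes of Polrmt and Twnk were -0.49 and -0.56, and both still passed.

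Of 37 RNA processing and decay genes of the mitochondrion, 16 fell and 0 rose in edgeR, beside 14.1% and 14% of all genes tested. Their median log2 fold change was -0.29, beside -0.02 over all genes tested. Ptcd1, which binds mitochondrial transfer RNA precursors, fell by 1.16 on the log2 scale (edgeR adjusted p = 0.000717). Fastkd5, needed for messages not bordered by transfer RNAs, fell by 0.82 (edgeR adjusted p = 0.00257). Lrpprc and Slirp form a complex that stabilises the mitochondrial messages. Lrpprc was at 82.6 ± 8.98 CPM in WT and 67.6 ± 5.42 CPM in ChR2 (SD, n = 6 each; log2 fold change -0.29, edgeR adjusted p = 0.0541), and Slirp had a log2 fold change of 0.30 (edgeR adjusted p = 0.631). Without WT 2 and WT 5 the count was 18 lower and 1 higher, beside 16.3% and 18.9% of all genes tested. Leaving out 1 well at a time gave 6 to 16 lower, and limma on log2(TPM + 1) called 0, with unit and test changed together, so the size of the count rests on single wells and on the method.

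The mitochondrial translation apparatus gave smaller counts. Of 18 translation factors 4 fell and 0 rose, the largest being Mtrf1, a release factor, by 1.67 on the log2 scale from a level of 2.57 CPM in WT, and Mief1, better known for its part in mitochondrial division, by 0.67. Of 78 mitochondrial ribosomal protein genes 2 rose and 7 fell, beside 14% and 14.1% of all genes tested. Mrpl54 and Mrpl23 rose by 0.59 and 0.42, and Mrps27 and Mrpl9 fell by 0.63 and 0.54 on the log2 scale. Without WT 2 and WT 5 the count was 3 higher and 21 lower, beside 18.9% and 16.3% of all genes.

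The nuclear subunits that join the mitochondrial ones in the same complexes mostly did not pass. Of 37 for complex I, 4 for complex II, 9 for complex III and 17 for complex V, 0 passed in edgeR in either direction. Of all genes tested 28.1% passed, and 1 of these subunits, of complex V, had an unadjusted p under 0.05. DESeq2 also called 0 of these, beside 4316 of 13168 genes tested. Of 14 for complex IV 1 rose, Cox8a, from 93.6 ± 34.9 CPM in WT to 145 ± 18.1 CPM in ChR2 (SD, n = 6 each; log2 fold change 0.60, edgeR adjusted p = 0.0452). Complex V's Atp5b, the catalytic beta subunit, averaged 1781 ± 249 CPM in WT against 1679 ± 108 CPM in ChR2 (SD, n = 6 each). Complex I's Ndufb9 and Ndufb8 had log2 fold changes of -0.11 and 0.02, complex II's Sdhd and Sdha of 0.09 and 0.06, complex III's Uqcrh and Uqcrq of 0.32 and 0.32. Atp5a1, the alpha subunit, had -0.16.

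Markers moved with the lines in part. In the same fit 3 of 12 muscle markers were lower in ChR2 and 0 higher, beside 14.1% and 14% of all genes tested. DESeq2 called 5 lower, beside 2117 of 13168 genes tested. In CPM the medians of Myh3, Mef2c, Ckm, Tnnt3 and Acta1 were higher in ChR2 and those of the other muscle markers were lower. Median Myh3 was 1102 CPM in ChR2 and 688 CPM in WT, and median Ckm 671 and 458 CPM. Ttn, the giant spring protein titin, had a log2 fold change of -2.01 and Myog, a myogenic transcription factor, of -0.84. That of Ttn was -0.79 without WT 2 and WT 5, and 4 muscle markers were then lower, beside 16.3% of all genes tested. Of 5 tested markers of other cell types, Pdgfrb and Tubb3 were higher in ChR2, with log2 fold changes of 0.97 and 0.67. Of 5 tested untailed RNAs 4 were lower in ChR2, among them the RNase P RNA Rpph1 at -9.79 and the 7SL row Rn7s1 at -8.87, while without WT 2 and WT 5 these had log2 fold changes of 1.83 (edgeR adjusted p = 0.236) and 0.90 (edgeR adjusted p = 0.588). The part of these in the nuclear counts above was not tested.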

How the data were processed

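RNA of 12 wells was sequenced, 6 of each line, grouped by the genotype label with replicate numbers from the titles. The authors deposited estimated counts per gene, of which 91.8% are whole numbers, zeros included, and TPM for the same genes. Per the submitters' processing notes, the tools were bedtools 2.25.0, BWA 0.7.12-r1039, Salmon and STAR, with the builds GRCm39, mm10 and hg19, named without their roles. All 12 columns of each table were used.

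Counts were rounded and tested with edgeR 4.0.16 (R 4.3.3; TMM, filterByExpr with a minimum count of 10, robust quasi-likelihood test, genotype as the only term), with Benjamini-Hochberg adjustment over all genes tested and a threshold of 0.05. Standard errors given with edgeR are the absolute log2 fold change divided by the square root of the quasi-likelihood F statistic. The fitting was tested on simulated counts. DESeq2 1.42.0 and limma 3.58.1 on log2(TPM + 1) were alternatives, as were other scalings, filters, left-out wells and a replicate block. CPM and shares were computed from unrounded counts divided by the well's total. Wells of the same line differed by more than sampling noise in every pair (chi-square per degree of freedom of at least 5.09), so none was treated as a repeat deposit.

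Nuclear copies were annotated GENCODE M21 transcripts of which at least 80% of the 31-base words lie in 1 mt- transcript, which gave 7; 10 less similar ones held at most 90.7 counts in any well and were left alone. The members, the gene lists and the rule for names were chosen with earlier results of these data known. Named were all messages and ribosomal RNAs, transfer RNAs by mean count, Polrmt, Tfam, Lrpprc and Slirp, and per list the 2 largest called rises and falls at 1 CPM or more, or the 2 most abundant members. Copies, their sums and the shares without them were examined after the data were seen.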

Additional observations from a re-analysis of the deposited data

Results flagged for a closer look

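Levels and shares of the transcripts gave 62 groups of 6 wells, and in 13 of them the highest or lowest well lay farther from the other 5 than Dixon's 95% limit. Chance marks about 1 in 20 groups. The values come from the same wells and the shares are parts of 1 sum, so the 13 are not independent.

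Among the ChR2 wells, ChR2 4 was low in CPM with copies added for 8 messages. It held 472 CPM of mt-Nd1 against 1439 to 1870 in the other 5, 305 CPM of mt-Nd2 against 890 to 1191, and 1212 CPM of mt-Co2 against 3422 to 4361. For mt-Co3 it held 805 CPM against 1985 to 2526, and for mt-Cytb 498 CPM against 1429 to 1858. The short messages mt-Atp8 (71.6 CPM), mt-Nd3 (46.4 CPM) and the light-strand mt-Nd6 (13.5 CPM) were likewise below ranges of 198 to 241, 96.4 to 117 and 42.1 to 52.3 CPM.

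Among the WT wells, the marked values were shares. WT 5 gave mt-Nd1 4.51% and mt-Co2 7.97% of the messages, below the other WT wells at 6.34% to 7.39% and 12.9% to 14.1%. WT 2 gave mt-Co3 4.90% against 8.77% to 11.0%, mt-Nd5 21.1% against 4.88% to 6.25% and mt-Nd6 4.90% against 0.0927% to 0.59%.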

How the results depend on the processing

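No message and no ribosomal RNA passed under any of the 28 settings run, and transfer RNAs entered the test only without a filter. What moved was the median log2 fold change of the messages, 0.13 over all wells. It was 1.59 with limma on log2(TPM + 1), with or without a filter, and 1.59 on log2(TPM + 0.1), where the median of all genes shifted too, to 0.35, 0.08 and 0.43. It was -0.42 without WT 2 and WT 5 and -0.25 without ChR2 4 as well, and -0.42 and -0.25 again with copies added. Leaving out 1 well gave -0.12 to 0.48. With the replicate block it was 0.72, and 2641 genes passed in place of 3701 (1838 higher), but the numbers were not taken to pair wells, since deviations of wells with the same number correlated by only -0.144 to 0.0955. limma on TPM called 620 genes (592 higher) with a pseudocount of 1, 271 (254 higher) with 0.1 and 425 (402 higher) without a filter. The cause was not tested. The RNA processing count of 16 was 8 with upper-quartile scaling and without a filter, 0 with limma, 5 with the replicate block and 6 to 16 with 1 well left out. The count of 7 ribosomal protein genes lower in ChR2 was 4 with upper-quartile scaling and without a filter, 0 with limma, 3 with the replicate block and 23 without WT 2, WT 5 and ChR2 4. Gm28439 kept its direction and lost its call under 13 of 24 alternatives, its edgeR, DESeq2 or limma adjusted p running from 0.0148 to 0.347; it was 0.134 with the replicate block. Depth limits WT 2 most, where 1041 counts carry all 13 messages and their copies.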
